A study of Bos taurus with 9 samples.

Results

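The xenobiotic phase I and II genes were followed in liver biopsies of lactating Holstein cows. The genes were the listed symbols of the cytochrome P450 families CYP1 to CYP3, the UDP-glucuronosyltransferases of the UGT1 and UGT2 families, the cytosolic sulfotransferases (SULT) and the soluble glutathione S-transferases (GST). Of 47 symbols of these families among 28786 listed genes, 43 had at least 10 counts in 3 or more of the 9 libraries and were kept, with 15 CYP, 4 UGT, 9 SULT and 15 GST genes. The genes were chosen by symbol and read count, and the count minimum was applied without regard to group. The choice was made with earlier results of these data known. Of the 43 genes, 0 reached the minimum in the libraries of 1 group alone. The genes closest above the minimum were *SULT6B1* and *SULT2B1*, each with 4 libraries at 10 counts or more. The 4 genes left out were *CYP1B1* and *GSTO2* (1 such library each), *SULT4A1* and *SULT1D1* (none).

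The study held cows in 3 environments. The TN group was kept in thermoneutrality, the PF group was kept in thermoneutrality and pair-fed to the intake of the heat-stressed cows, and the HS group was kept under heat stress. The HS and PF groups were thus matched in intake and differed in the heat environment. By the paper, average days in milk also differed between the groups, lowest in TN and highest in PF. The tests below did not include days in milk. Each group held 3 cows, each with 1 biopsy taken during the treatment and 1 polyA RNA library, and the labels give no age.

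Phase I enzymes such as the cytochromes P450 oxidize drugs, plant compounds, steroids and fatty acids. Phase II enzymes then attach a polar group: UGTs transfer glucuronic acid from UDP-glucuronate, SULTs transfer sulfate from PAPS, and GSTs couple glutathione to reactive electrophiles. The roles named here are those known for the mammalian enzymes. The liver is the main site of both steps, most P450s work in hepatocytes around the central vein, and many of the genes are known targets of the nuclear receptors PXR (*NR1I2*) and CAR (*NR1I3*) or of the aryl hydrocarbon receptor (*AHR*).

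Libraries held 16874444 to 22557047 counts. All 10 hepatocyte markers had at least 10 counts in every cow, and their summed level was 20332 CPM in TN replicate 1 and 66946 to 139772 CPM in the other cows. TN replicate 1 also needed the largest normalization factor (1.33, against 0.869 to 1.202 in the others). In these bulk samples fewer hepatocytes and less RNA of a gene per hepatocyte cannot be told apart. Levels are TMM-normalized CPM (counts scaled by library size), given as mean ± SD of n = 3 cows. Genes of these families have close copies, and how reads shared by copies were counted is not given in the sources used here, so the split between close copies is uncertain. CPM is not corrected for transcript length and is compared here between cows, not between genes.

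The 43 genes took between 1.15% (TN replicate 1) and 2.47% (HS replicate 3) of all counts. The reads were concentrated on few genes. *CYP3A5*, *CYP2E1* and *CYP1A2* held 72.6% of the CYP reads on average over the 9 cows, and *UGT1A1* held 77.9% of the UGT reads. *SULT1A1* and *SULT2A1* held 87.8% of the SULT reads, and the most read GST gene, *GSTA1*, held 27.997%. At the other end, *CYP2J2*, *CYP2S1*, *SULT1C3* and *SULT6B1* had a mean below 1 CPM.

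Summed over the family, CYP reads were 8874 ± 3576 CPM in TN, 11541 ± 2079 CPM in PF and 10122 ± 5454 CPM in HS cows. The 3 HS cows had 6408, 7574 and 16383 CPM, a spread that took in every PF cow. GST reads were likewise most spread in the HS group, with 4836 ± 1916, 5417 ± 924 and 5239 ± 3711 CPM in TN, PF and HS cows. The TN cows had 2791, 6591 and 5125 CPM, the PF cows 6214, 5633 and 4404 CPM and the HS cows 2727, 3489 and 9502 CPM. Without HS replicate 3 the HS mean was 3108 CPM, below the TN mean. The sums of SULT reads were 1130 ± 459, 1495 ± 137 and 1578 ± 474 CPM. The UGT sum was the only one of the 4 in which the PF cows (587 to 671 CPM) lay above all TN cows (208 to 494 CPM) and all HS cows (369.9 to 501 CPM). These sums were not tested.

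**Figure D1:**
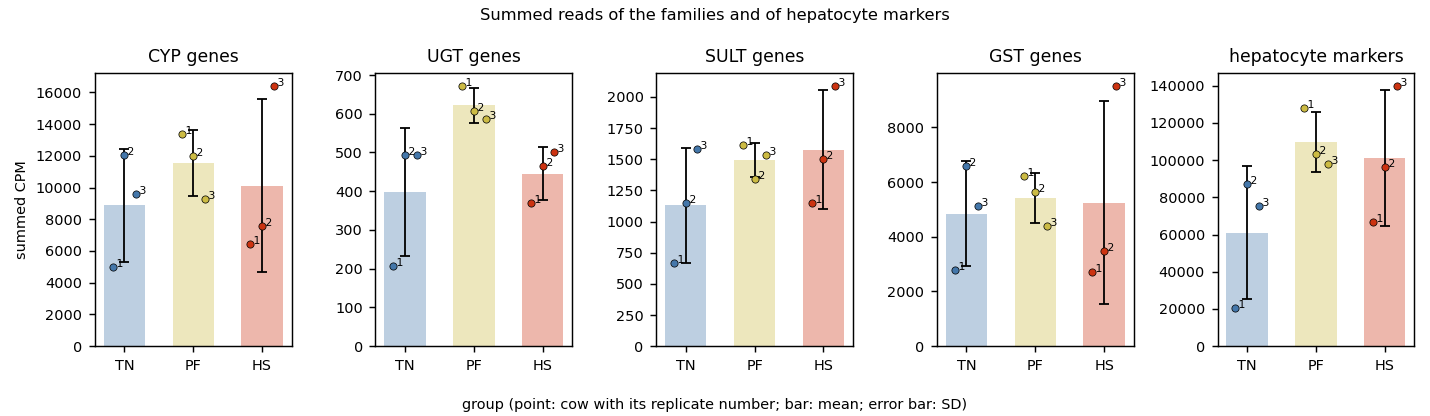
Summed CPM of the CYP, UGT, SULT and GST genes and of 10 hepatocyte markers (y axis) by group (x axis); points are cows with their replicate number, bars are means and error bars SD of 3 cows. TN replicate 1 is the lowest cow in the CYP, UGT and SULT sums and in the markers, and HS replicate 3 is the highest in the CYP, SULT and GST sums and in the markers.

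Individual cows stood out across many of the genes. TN replicate 1 had the lowest level of 16 of the 43 genes (37.2%), where it was lowest in 27.1% of the 15193 listed genes that reached the same count minimum. HS replicate 3 had the highest level of 15 of the 43 genes (34.9%), against 12.7% of those 15193 genes. These cows also had the lowest and the highest sum of hepatocyte markers, and the part of this in the values below was not tested. The spread within groups, as the pooled SD of log2 CPM, had a median of 0.63 over the 42 genes tested in all 9 libraries and of 0.39 over all 15073 genes tested.

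The most read P450 genes show this spread. *CYP1A2*, an aryl hydrocarbon receptor target that oxidizes aromatic amines and caffeine, had 1091, 2850 and 1861 CPM in TN cows, 2169, 2182 and 1603 CPM in PF cows and 810, 1472 and 3733 CPM in HS cows. *CYP3A5*, of the subfamily with the broadest range of drug and steroid substrates, had 796, 3120 and 2985 CPM in TN, 3868, 3426 and 2222 CPM in PF and 2374, 2387 and 4857 CPM in HS cows. *CYP2E1*, which oxidizes ethanol, acetone and other small molecules, had 1124, 3143 and 2744 CPM in TN, 3535, 3597 and 2571 CPM in PF and 1334, 1546 and 3074 CPM in HS cows. The groups overlapped in all 3 genes in each comparison, and each group except PF held cows that differed by more than 2-fold. *CYP1A1* varied alongside its neighbour *CYP1A2*: the ratio of their counts stayed between 0.239 and 0.336 in the 9 cows.

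**Figure D2:**
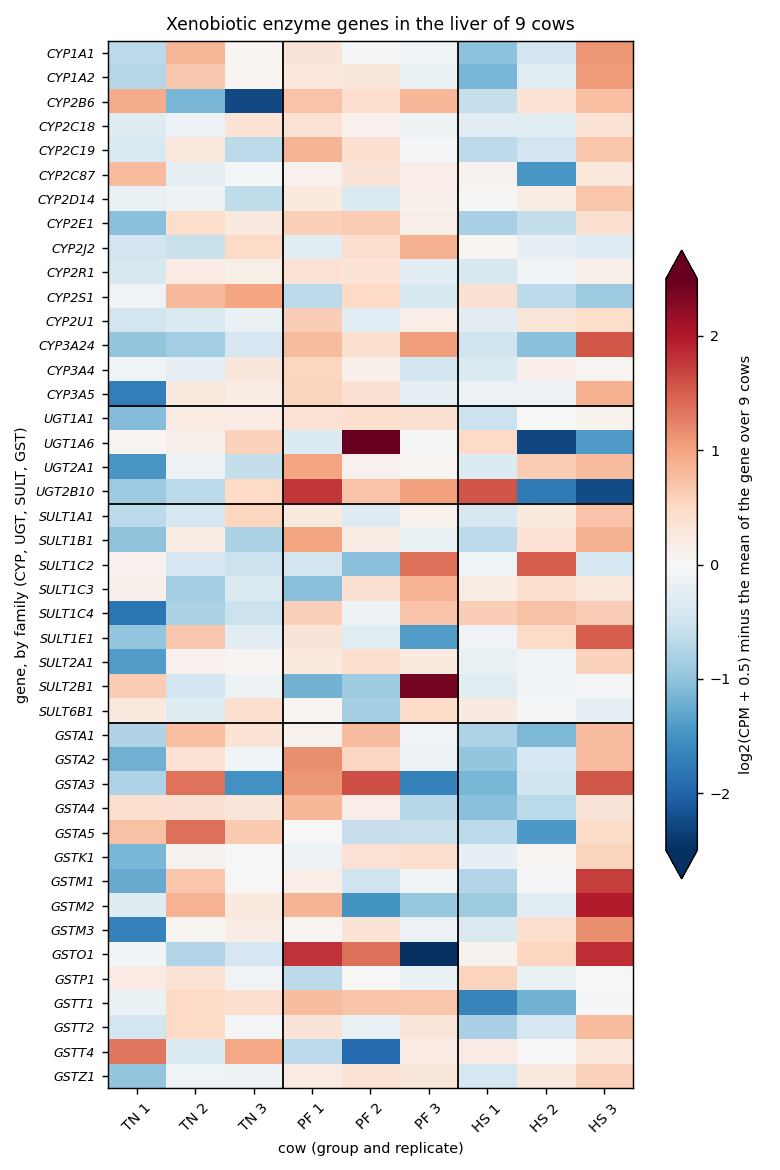
Level of each of the 43 genes (rows, by family) in each of the 9 cows (columns, by group) as log2(CPM + 0.5) minus the mean of the gene over the cows, red above and blue below. TN replicate 1 is the lowest cow in 16 rows, HS replicate 3 is the highest in 15 rows, and *SULT1C4* is blue in all TN and red in all HS cows.

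Each pair of groups was tested with edgeR on its 6 libraries, with p-values adjusted over all genes tested (Benjamini-Hochberg, FDR). A gene was called differentially expressed (DEG) where the FDR was below 0.1 and the change exceeded 1.5-fold. No member of the 4 families was a DEG by edgeR in any of the 3 comparisons. In the test of all 3 groups together, 0 of 42 genes passed by edgeR (0.0464% of all genes tested did), 6 had an unadjusted p under 0.05 (14.3%, against 7.86%), and 2 of 41 passed by DESeq2 (1.89% of all genes). The 6 genes became 3 without TN replicate 3 and 3 without PF replicate 2. With 1 cow left out, here and below, the share of all genes with such a p was not counted. The p-values set the difference between groups against the spread between these cows.

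The comparison of the HS and TN groups asks what the heat environment with its low intake did relative to thermoneutral cows that were not pair-fed. Of 42 genes tested, 0 were DEGs by edgeR (0.0892% of all genes tested were), 5 had an unadjusted p under 0.05 (11.9%, against 9.36% of all genes tested), and 2 were DEGs by DESeq2 (1.75% of all genes). Of these 5, *SULT1C4*, *UGT2A1* and *GSTO1* had the higher level in the HS group (7.14%, against 4.13%) and *GSTT1* and *GSTA5* the lower (4.76%, against 5.23%). The 5 genes became 9 without HS replicate 1 and 3 without HS replicate 2. The median log2 fold change of the 42 genes was 0.20, with -0.01 over all genes tested, and 24 were above 0 (57.1%, against 49.3%). By family the median was -0.04 for CYP, 0.21 for UGT, 0.82 for SULT and 0.14 for GST genes. There was no overlap between HS and TN cows in 5 genes (11.9%, against 16.1% of all genes tested), of which 4 were higher in the HS group (9.52%, against 8.37%) and *GSTA5* lower (2.38%, against 7.70%).

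The comparison of the HS and PF groups asks about the heat environment at a matched intake. Of 41 genes tested, 0 were DEGs by edgeR (0.0276% of all genes tested were), 1 had an unadjusted p under 0.05 (2.44%, against 5.32%), and 1 was a DEG by DESeq2 (0.771% of all genes). That gene was *GSTT1* in each case, with a lower level in the HS group, where 2.25% of all genes had such a p. The 1 gene became 12 genes without HS replicate 3, 6 without HS replicate 1, 4 without PF replicate 1, 3 without PF replicate 3 and 2 without HS replicate 2. The median log2 fold change was -0.09, with 0.01 over all genes tested, and 14 of the 41 genes were above 0 (34.1%, against 50.9%). The groups did not overlap in 2 genes, *GSTT1* and *UGT1A1*, both lower in the HS group (4.88%, against 10.5% of all genes tested and 4.58% in that direction), and in 0 genes that were higher (5.95% of all genes). The summed level of 9 macrophage markers was 1239 to 1699 CPM in PF and 1843 to 2927 CPM in HS cows. Of the 9, 8 had an unadjusted p under 0.05 with a higher level in HS cows (3.07% of all genes did). None of them was a DEG by edgeR or DESeq2 in HS against PF cows. The TN cows had 1251 to 2812 CPM and overlapped the HS cows. In HS against TN cows 1 of 9 had such a p with a higher level (4.13% of all genes). The 9 lymphocyte and neutrophil markers summed to 66.5 to 102 CPM in TN, 67.0 to 89.97 CPM in PF and 95.4 to 172 CPM in HS cows. In HS against PF cows 3 of 9 had such a p with a higher level (3.07% of all genes) and 0 with a lower one (2.25%). The part of these lists in the values of the xenobiotic genes was not tested.

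The comparison of the PF and TN groups asks about the lower intake in the absence of heat. Of 42 genes tested, 0 were DEGs by edgeR (0.00% of all genes tested), 7 had an unadjusted p under 0.05 (16.7%, against 6.88%), and 3 were DEGs by DESeq2 (0.555% of all genes). Of these 7, *CYP3A24*, *SULT1C4*, *UGT2B10*, *UGT2A1* and *SULT1B1* had the higher level in the PF group (11.9%, against 2.99%) and *GSTA5* and *GSTT4* the lower (4.76%, against 3.89%). The 42 genes had a median log2 fold change of 0.45, with -0.01 over all genes tested, and 31 were above 0 (73.8%, against 48.8%). The family medians were 0.32 for CYP, 1.28 for UGT, 0.72 for SULT and 0.11 for GST genes. The groups did not overlap in 9 genes (21.4%, against 13.2%), of which 8 were higher in the PF group (19.0%, against 6.82%) and *GSTA5* lower (2.38%, against 6.36%). In this comparison the sums of hepatocyte markers were also separate, with 20332 to 87288 CPM in TN and 98172 to 128029 CPM in PF cows. Of the 10 markers, 10 had a log2 fold change above 0, 0 had an unadjusted p under 0.05 and 0 were DEGs by edgeR or DESeq2. Both comparisons with the TN group use the same TN cows, so their values are not independent of each other.

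**Figure D3:**
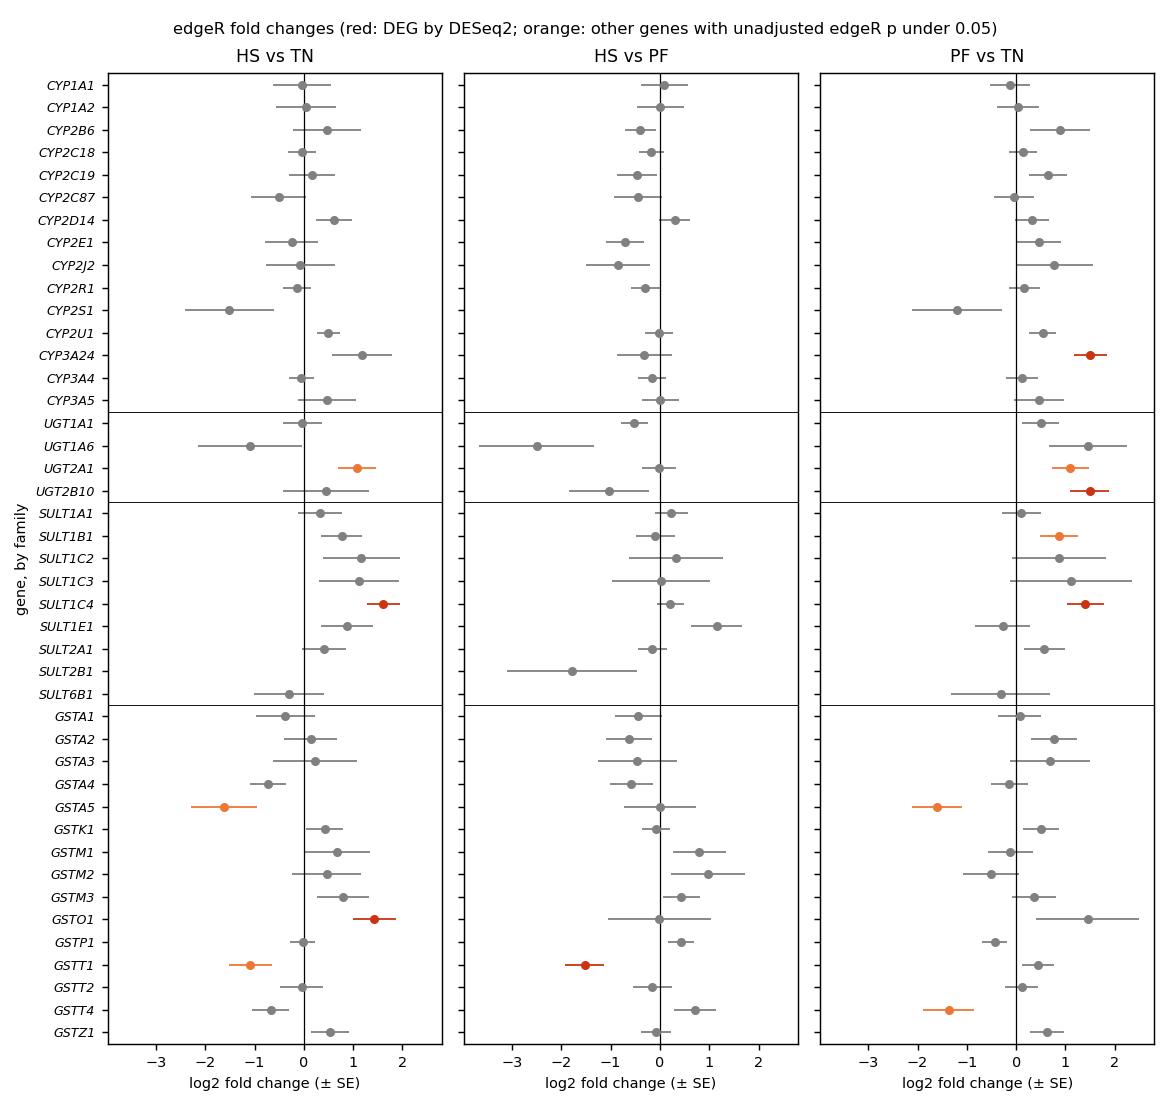
Log2 fold change of each gene (x axis, with its SE) in the comparisons HS vs TN, HS vs PF and PF vs TN, from the edgeR fit of the 6 libraries of each pair. Red marks genes that were DEGs by DESeq2 and orange other genes with an unadjusted edgeR p under 0.05; the points for PF vs TN lie to the right of 0 in 31 of 42 genes.

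*SULT1C4*, one of the SULT1C sulfotransferases, which act on phenols and some aromatic hydroxylamines, had the smallest p of the 42 genes tested in the test of all 3 groups (FDR 0.2305, edgeR). Its level was 31.3, 64.2 and 77.4 CPM in TN cows, 170.3, 103 and 184 CPM in PF cows, and 173, 186 and 172 CPM in HS cows. All PF and HS cows were above all TN cows, and the HS cows lay close together. The HS group was 3.05-fold above the TN group (log2 fold change 1.61, SE 0.33, FDR 0.249, edgeR). The PF group was 2.64-fold above it (log2 fold change 1.40, SE 0.38, FDR 0.625, edgeR). DESeq2 called both differences (FDR 0.000285 and 0.0312), and the FDRs over all alternatives reached 0.555 and 0.923. Between HS and PF cows the log2 fold change was 0.21 (SE 0.28, FDR 1.00, edgeR). The symbol lies between *RSPH4A* and *RWDD1* in ARS-UCD2.0 (RefSeq) and apart from *SULT1C2* and *SULT1C3*, and the annotation release behind the counts is not given in the sources used here.

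The share of *SULT1C4* in the counts of its own family does not depend on library size. It was 4.72%, 5.61% and 4.90% in TN cows, 10.6%, 7.65% and 12.02% in PF cows and 15.1%, 12.4% and 8.26% in HS cows, each with a 95% Wilson interval of at most 0.40 percentage points to either side. The lowest PF cow thus held a larger share than the highest TN cow, and the HS and PF cows overlapped. This share, like that of *GSTT1* below, was chosen after the levels were seen and was not tested.

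The other sulfotransferases with many reads did not separate in this way. *SULT2A1*, which sulfates bile acids and dehydroepiandrosterone, had 190.2, 542 and 522 CPM in TN, 596, 673 and 596 CPM in PF and 443, 482 and 749 CPM in HS cows. *SULT1A1*, the main phenol sulfotransferase of liver, had 422, 496 and 959 CPM in TN, 779, 530.1 and 713 CPM in PF and 505, 783 and 1092 CPM in HS cows. Only for *SULT2A1* did the PF cows exceed all TN cows, and in neither gene did HS and TN cows separate. *SULT1B1*, which acts on thyroid hormones and small phenols, had 14.1, 32.8 and 16.4 CPM in TN, 57.3, 32.7 and 25.3 CPM in PF and 18.1, 37.0 and 53.7 CPM in HS cows. Its log2 fold change in PF against TN cows was 0.86 (SE 0.38, FDR 0.708, edgeR), with overlapping groups. It was 0.46 without PF replicate 1 and 1.34 without TN replicate 2. *SULT1E1*, the estrogen sulfotransferase, ranged from 1.73 CPM in PF replicate 3 to 16.1 CPM in HS replicate 3.

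*GSTT1* had the smallest p of the families between the HS and PF groups. It encodes a theta-class transferase, which handles small halogenated molecules. Its level was 289, 456 and 432 CPM in TN cows, 551, 529 and 523 CPM in PF cows, and 102, 143 and 314 CPM in HS cows. Every HS cow was below every PF cow, and the 3 PF cows differed little. In the HS group it was 2.88-fold lower than in the PF group (log2 fold change -1.53, SE 0.39, FDR 0.408, edgeR). DESeq2 called this difference (FDR 0.00644), and over all alternatives the FDR reached 0.956. Against the TN group the log2 fold change in HS cows was -1.09 (SE 0.44, FDR 0.502, edgeR), and HS replicate 3 overlapped the TN cows. Without that cow it was -1.69 against the TN group and -2.13 against the PF group. Without HS replicate 1 it was -0.79 against the TN group and -1.24 against the PF group. In PF against TN cows it was 0.44 (SE 0.33, FDR 0.742, edgeR) and 0.27 without TN replicate 1, although each PF cow exceeded each TN cow.

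*GSTT2* lies beside *GSTT1* in ARS-UCD2.0 and encodes the second theta-class enzyme. It had 127, 248 and 170.1 CPM in TN, 219, 154 and 217 CPM in PF and 99.5, 130.01 and 304 CPM in HS cows, with groups that overlapped in every comparison. The number of *GSTT1* counts per *GSTT2* count was 2.28, 1.83 and 2.54 in TN cows and 2.51, 3.43 and 2.41 in PF cows. In the HS cows it was 1.03, 1.10 and 1.03. Of all GST counts, *GSTT1* took 10.4%, 6.91% and 8.44% in TN cows, 8.87%, 9.40% and 11.9% in PF cows and 3.75%, 4.09% and 3.31% in HS cows, with 95% Wilson intervals of at most 0.24 percentage points to either side. By both measures HS replicate 3, which had the highest GST sum, lay with the other HS cows and below every TN and PF cow. Such a separation of family shares was not particular to *GSTT1*. Of 43 members, 4 had a higher and 5 a lower share in all HS than in all TN cows. Against PF cows 4 were higher and 3 lower. In all PF against all TN cows, with no heat stress in either group, 4 were higher and 5 lower. Such shares were not computed for genes outside the families. *CYP2E1* took 18.8% to 20.8% of CYP counts in HS, 22.5% to 28.6% in TN and 26.5% to 30.0% in PF cows. The *GSTM3* share was higher in HS cows than in all others. These shares were not tested.

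**Figure D4:**
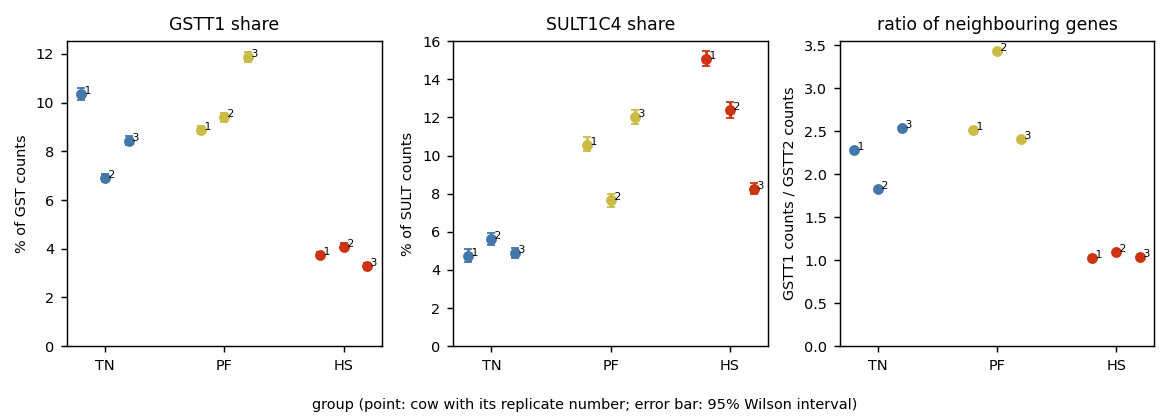
Share of *GSTT1* in the GST counts and of *SULT1C4* in the SULT counts (percent, with 95% Wilson intervals that cover counting error only), and *GSTT1* counts per *GSTT2* count, by group; each point is a cow with its replicate number. The HS cows hold 3.31% to 4.09% for *GSTT1* and a ratio from 1.03 to 1.10, below every TN and PF cow, and the TN cows hold 4.72% to 5.61% for *SULT1C4*, below every PF and HS cow.

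Another theta-class gene, *GSTT4*, had 79.5, 24.8 and 62.3 CPM in TN, 20.1, 7.87 and 36.7 CPM in PF and 36.5, 31.8 and 38.1 CPM in HS cows. Its log2 fold change in PF against TN cows was -1.37 (SE 0.52, FDR 0.708, edgeR), and the groups overlapped in TN replicate 2 and PF replicate 3. Without PF replicate 3 it was -2.003, and without PF replicate 2 it was -0.97. *GSTT4* overlaps *LOC132342556* in ARS-UCD2.0, and reads of the 2 genes cannot be told apart without the strand setting.

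*GSTA5* was read at a low level, with 3.35, 5.49 and 3.16 CPM in TN, 1.83, 1.06 and 1.07 CPM in PF and 0.959, 0.351 and 2.69 CPM in HS cows. Every TN cow exceeded every PF and HS cow. Relative to the TN group, HS cows had a log2 fold change of -1.61 with an SE of 0.67 (FDR 0.504, edgeR). Without HS replicate 3 it was -2.58, and without HS replicate 2 it was -1.16. For PF cows the log2 fold change was -1.60 with an SE of 0.51 (FDR 0.697, edgeR). In ARS-UCD2.0 *GSTA5* overlaps *LOC112443730*, and *GSTA5* rests on 6 to 89 counts per library. The alpha-class genes beside it, whose products act on lipid peroxidation products and steroids, did not separate the groups by level. *GSTA1* had 772, 2183 and 1650.3 CPM in TN, 1389, 2217 and 1229 CPM in PF and 761, 594 and 2217 CPM in HS cows, and *GSTA2* ranged from 231 CPM in TN replicate 1 to 1183 CPM in PF replicate 1. *GSTA3* varied 11.8-fold between the cows, from 2.24 CPM in PF replicate 3 to 26.5 CPM in PF replicate 2.

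*GSTO1*, an omega-class enzyme with thioltransferase and dehydroascorbate reductase activity, had 9.92, 6.05 and 7.63 CPM in TN cows and 11.03, 15.4 and 38.7 CPM in HS cows. The HS cows all lay above the TN cows (log2 fold change 1.43, SE 0.45, FDR 0.417, edgeR). Without HS replicate 3 the log2 fold change was 0.72. DESeq2 called it (FDR 0.0715), and over all alternatives the FDR reached 0.857. In the PF group, replicates 1 and 2 had 37.3 and 27.8 CPM, from 631 and 497 counts, while replicate 3 had 0 counts, which allows up to 0.153 CPM. The library of that cow was not small (19517728 counts), and no other library was below 98 counts of the gene. In ARS-UCD2.0 *GSTO1* overlaps *LOC112444463*.

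The mu-class genes differed between cows more than between groups. *GSTM2* had 435, 988 and 637 CPM in TN, 969.8, 191 and 281 CPM in PF and 291, 443 and 2128 CPM in HS cows, an 11.1-fold range. *GSTM1* had 215, 827 and 515 CPM in TN, 573, 364 and 492 CPM in PF and 310.1, 498 and 1692 CPM in HS cows. HS replicate 3 was the highest cow for both, and no group separated from another. *GSTZ1*, which isomerizes maleylacetoacetate in tyrosine breakdown, had 311 ± 94.8 CPM in TN, 479.8 ± 22.7 CPM in PF and 454 ± 152 CPM in HS cows, and each PF cow exceeded each TN cow.

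*CYP3A24* had the smallest p of the families between the PF and TN groups. It had 138, 149.9 and 204 CPM in TN cows, 470.3, 361 and 564 CPM in PF cows, and 193, 133 and 797 CPM in HS cows. Every PF cow exceeded every TN cow, whereas the HS cows included both the lowest and the highest of all 9. The PF group was 2.83-fold above the TN group (log2 fold change 1.503, SE 0.34, FDR 0.523, edgeR). DESeq2 called it (FDR 0.000189), and over all alternatives the FDR reached 0.880. The log2 fold change in HS against TN cows was 1.18 (SE 0.61, FDR 0.553, edgeR) and rested on HS replicate 3, without which it was -0.02. *CYP3A4*, another gene of this subfamily, had 83.9 ± 16.5, 91.3 ± 31.1 and 81.7 ± 14.6 CPM in TN, PF and HS cows.

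Among the remaining P450 genes, *CYP2D14* had 623, 636 and 448 CPM in TN and 710.1, 794 and 1125 CPM in HS cows, without overlap (log2 fold change 0.61, SE 0.36, FDR 0.593, edgeR). *CYP2C19* had 696 ± 239, 1091 ± 328 and 791 ± 435 CPM in TN, PF and HS cows. *CYP2B6*, in humans the classic target of CAR, varied most within the TN group, with 64.1, 14.9 and 6.67 CPM. *CYP2R1*, which hydroxylates vitamin D, was among the steadiest, with levels from 6.88 to 12.1 CPM in the 9 cows.

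**Figure D5:**
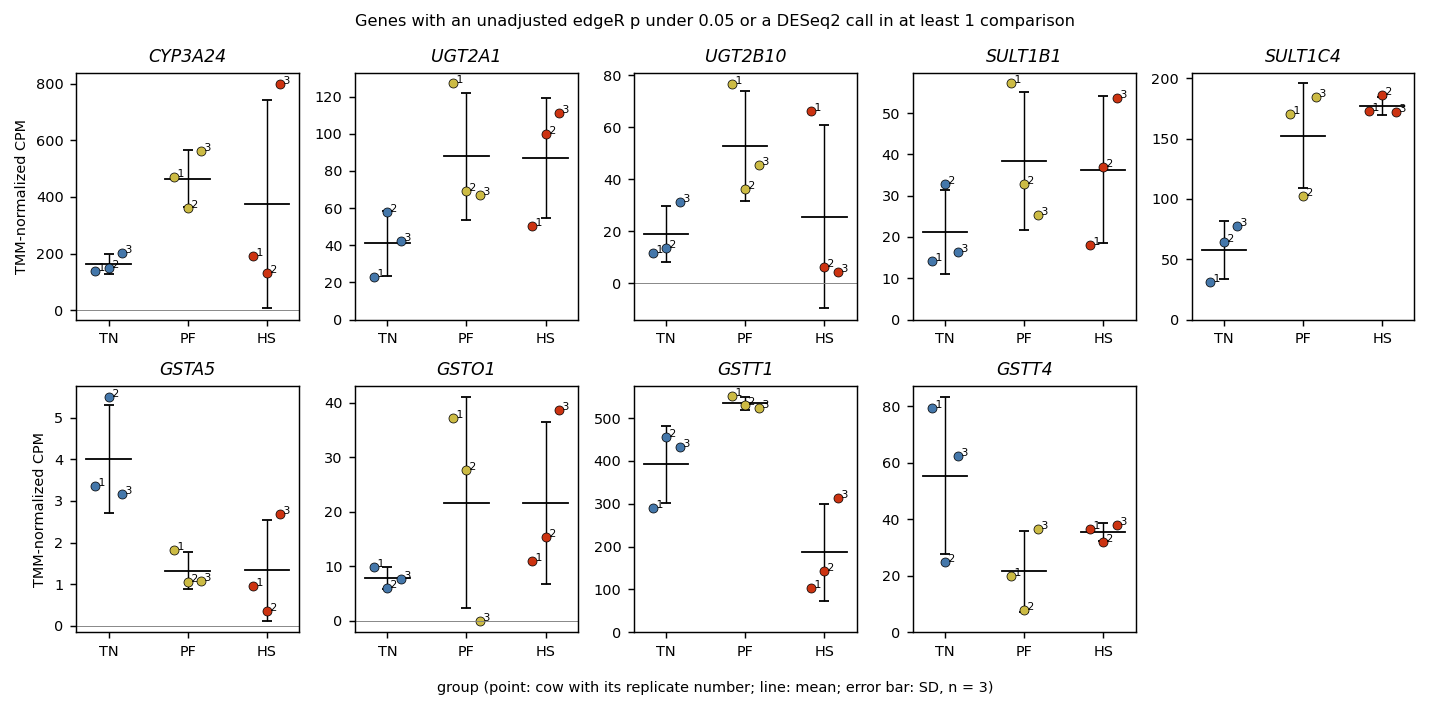
TMM-normalized CPM (y axis) of the 9 genes with an unadjusted edgeR p under 0.05, or a DESeq2 call, in at least 1 comparison, by group (x axis); points are cows with their replicate number, lines are means and error bars SD of 3 cows. The PF cows lie above the TN cows for *CYP3A24*, *UGT2A1*, *UGT2B10* and *SULT1C4*, the HS cows below the PF cows for *GSTT1*, and PF replicate 3 is at 0 for *GSTO1*.

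Of the UGT genes, *UGT1A1*, whose product conjugates bilirubin, had 171, 419 and 418 CPM in TN cows, 466, 484 and 472 CPM in PF cows and 250.5, 359 and 385 CPM in HS cows. The PF cows lay above all other cows and close together. The log2 fold change was -0.52 (SE 0.27, FDR 0.960, edgeR) in HS against PF cows and 0.50 (SE 0.38, FDR 0.751, edgeR) in PF against TN cows. *UGT1A6* overlaps *UGT1A1* in the annotation and reached 16.8 CPM in PF replicate 2 and at most 3.10 CPM in the others, and reads on their shared exons could be split in a way the sources do not state.

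*UGT2A1*, a glucuronosyltransferase with broad phenol and steroid substrates, had 23.1, 57.8 and 42.1 CPM in TN, 127, 69.1 and 67.0 CPM in PF and 50.3, 99.7 and 111 CPM in HS cows. The HS group was 2.11-fold above the TN group (log2 fold change 1.07, SE 0.38, FDR 0.465, edgeR). The PF group was 2.14-fold above it (log2 fold change 1.10, SE 0.38, FDR 0.697, edgeR). The PF cows all exceeded the TN cows, and HS replicate 1 overlapped them. *UGT2A1* and *SULT1B1* are neighbours in ARS-UCD2.0, and both were highest in PF replicate 1 and lowest in TN replicate 1.

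*UGT2B10* had 11.5, 13.6 and 31.2 CPM in TN cows, 76.4, 36.3 and 45.3 CPM in PF cows, and 66.2, 6.14 and 4.24 CPM in HS cows. The PF cows all lay above the TN cows (log2 fold change 1.49, SE 0.40, FDR 0.625, edgeR). DESeq2 called this difference (FDR 0.0562), and over all alternatives the FDR ranged from 0.0132 to 1.00. HS replicate 1, with 1794 counts, stood apart from HS replicates 2 and 3, with 105 and 63 counts. The log2 fold change in HS against PF cows was -1.03 (SE 0.80, FDR 1.00, edgeR), and without HS replicate 1 it was -3.35 with an FDR of 0.0213 (range over the alternatives 0.0213 to 1.00). It was -0.67 without PF replicate 1, -0.57 without HS replicate 2 and -0.54 without HS replicate 3.

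Genes that act with these enzymes were counted in lists, and 0 of them were DEGs by edgeR in any comparison. Of all genes tested, 9.36%, 5.32% and 6.88% had an unadjusted p under 0.05 in HS against TN, HS against PF and PF against TN cows, and the counts for each list below follow that order unless they name a comparison. Of 21 receptors and regulators, 20 were tested. Their median log2 fold change was 0.00 in HS against TN, 0.01 in HS against PF and -0.11 in PF against TN cows, and at an unadjusted p under 0.05 there were 2, 1 and 0 genes. *NR1I2* had 88.2, 71.7 and 88.9 CPM in TN, PF and HS cows, *NR1I3* had 124, 100.5 and 125 CPM, and *AHR* had 17.04, 14.3 and 11.1 CPM, each with a p above 0.1 in all comparisons. The 17 genes of P450 electron donors and haem supply had medians of 0.04, -0.16 and 0.21, and 4, 2 and 3 had an unadjusted p under 0.05. *HMOX1*, which degrades haem, had 56.1, 104 and 67.5 CPM in TN, 76.5, 97.2 and 84.8 CPM in PF and 242, 124 and 296 CPM in HS cows, and DESeq2 called it in HS against TN (FDR 0.00313) and against PF cows (FDR 0.00712), where edgeR gave FDRs of 0.315 and 0.377. *UROS*, of haem synthesis, had 29.5 ± 12.96 CPM in TN and 11.9 ± 0.961 CPM in HS cows and was lower in HS cows by DESeq2 (FDR 0.0487), with an edgeR FDR of 0.329.

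The 29 other phase I enzymes had median log2 fold changes of 0.15, -0.17 and 0.37 in HS against TN, HS against PF and PF against TN cows. In PF against TN cows 23 of the 29 were above 0 (48.8% of all genes tested were), 4 had an unadjusted p under 0.05 with a higher level (2.99% of all genes) and 0 with a lower one (3.89%). In HS against PF cows 6 of the 29 had such a p with a lower level (2.25% of all genes) and 0 with a higher one (3.07%), and in HS against TN cows 1 had it with a higher and 1 with a lower level. Among the 6 was the carboxylesterase *CES1*, with 3667, 3821 and 2356 CPM in PF and 1377, 1309 and 2241 CPM in HS cows (DESeq2 FDR 0.0962, edgeR FDR 0.704). The quinone reductase *NQO2* had 243 ± 29.9 CPM in TN and 134 ± 23.2 CPM in HS cows (DESeq2 FDR 0.0864, edgeR FDR 0.426). Of the other phase II enzymes, 15 were tested in both comparisons with the TN group and 16 between HS and PF cows. Their medians were 0.25, -0.08 and 0.31, and 5, 2 and 1 had an unadjusted p under 0.05, each with the higher level in the group named first. *INMT*, an indole N-methyltransferase, had 2.90, 13.9 and 7.45 CPM in TN, 3.96, 3.07 and 21.4 CPM in PF and 33.5, 46.2 and 56.4 CPM in HS cows, above every other cow, with an FDR of 0.184 by edgeR and 1.67e-05 by DESeq2 against TN cows. *GNMT*, a glycine N-methyltransferase, stayed at or below 3.27 CPM in all cows and was called by DESeq2 in HS against PF cows (FDR 0.0945, edgeR FDR 0.638).

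Of the 19 cofactor supply genes the medians were 0.12, -0.06 and 0.11, and 1, 1 and 1 had an unadjusted p under 0.05. *UGP2*, which makes the UDP-glucose from which *UGDH* makes UDP-glucuronate, was the 1 gene of this list that DESeq2 called. It had 33.5, 61.9 and 50.3 CPM in TN, 115, 118 and 156 CPM in PF and 105, 106 and 115 CPM in HS cows. The DESeq2 calls were in HS against TN (FDR 0.00849) and PF against TN cows (FDR 0.00239), where edgeR gave FDRs of 0.272 and 0.488. *UGDH* itself had 179 CPM in TN, 310.6 CPM in PF and 226 CPM in HS cows, with an edgeR FDR of 0.708 in PF against TN cows. The 17 phase III transporters tested had medians of -0.07, -0.19 and -0.07, with 1, 2 and 0 genes at an unadjusted p under 0.05.

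Many P450 genes are expressed mainly around the central vein, so lists for both ends of the liver lobule were also counted. Of 14 pericentral genes the median log2 fold change was -0.25 for HS cows and -0.22 for PF cows relative to the TN group, and 10 were below 0 in each. Over the 3 comparisons 4, 0 and 3 of the 14 had an unadjusted p under 0.05. *AXIN2*, a Wnt target, had 12.1, 9.94 and 9.30 CPM in TN, 5.44, 3.18 and 6.06 CPM in PF and 4.76, 3.39 and 5.38 CPM in HS cows, and DESeq2 called it in HS against TN cows (FDR 0.0714, edgeR FDR 0.282). *NOTUM*, another Wnt target, had 84.7, 66.0 and 59.2 CPM in TN and 28.3, 41.4 and 39.6 CPM in PF cows, without overlap. Of 14 periportal genes the medians were 0.32 for HS cows and 0.14 for PF cows relative to the TN group, and 2, 2 and 3 had an unadjusted p under 0.05. The periportal genes with a DESeq2 call were *CDH1* and *SLC7A2* in HS against TN cows and *GLS2* and *SLC7A2* in HS against PF cows, all with the higher level in the HS group. The part of lobular position in the values of the P450 genes was not tested.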

How the data were processed

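The authors deposited raw read counts per gene for 9 liver libraries (3 cows each in TN, PF and HS). By their methods, reads were trimmed with fastp 0.23.2, aligned to ARS-UCD 1.2 with STAR 2.7.9a and counted with featureCounts 2.0.3. The strand and multi-mapping settings and the annotation release are not given in the sources used here, so closely related members may share or lose reads. All 9 columns were matched to cows by their labels (0 left out), and no pair of replicates agreed within sampling noise.

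Each pair was fitted with edgeR 4.0.16 in R 4.3.3 (TMM, filterByExpr, quasi-likelihood F test). SEs are the absolute log2 fold change divided by the square root of F. The 3-group test used all 9 libraries, and DESeq2 1.42.0 was an alternative. A count of 0 was taken to allow 3 counts, and intervals and limits cover counting error only. The fits were first tested on simulated counts with 200 changed genes and 1 spread shared by all genes. Of 2-fold changes, edgeR called 3% in HS against TN, 8% in HS against PF and 2.5% in PF against TN. Of 4-fold changes it called 90.5%, 90.5% and 84.5%. A count of 0 DEGs by edgeR therefore does not show that 2-fold changes were absent. The spread within groups had a median of 0.63 over the members tested and of 0.39 over all genes tested. The simulated rates, also those for 4-fold changes, thus need not hold for the members.

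The members and lists were chosen with earlier results of these data known. Members were named where they had an unadjusted p under 0.05 or a call by either tool, or were among the 3 most read of their family; list genes where called or among the 3 smallest p of a pair. Others (*SULT1E1*, *SULT1C2*, *SULT1C3*, *GSTT2*, *GSTA2*, *GSTA3*, *GSTM3*, *GSTZ1*, *CYP1A1*, *CYP2D14*, *CYP2C19*, *CYP2B6*, *CYP2R1*, *CYP3A4*, *UGT1A6*, *NR1I2*, *NR1I3*, *AHR*, *UGDH* and those at the count minimum) were chosen after their values were seen. Of the 43 symbols, 36 were found in the RefSeq table of ARS-UCD2.0, which served only to name neighbouring and overlapping genes. Those not found were *CYP2C18*, *CYP2C19*, *CYP2J2*, *CYP3A4*, *CYP3A5*, *GSTM1* and *SULT6B1*, and the position of the gene counted under each was not checked. No sequences were used.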

Additional observations from a re-analysis of the deposited data

How the results depend on the processing

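The count of members called as DEGs was 0 by edgeR in every comparison. With DESeq2 it was 2 in HS against TN, 1 in HS against PF, 3 in PF against TN and 2 in the 3-group test. Over all genes DESeq2 called 270, 122, 91 and 291 in that order. With edgeR without a filter on low counts the members called were 1, 1, 4 and 1, with 124, 98, 136 and 212 over all genes. Leaving out 1 cow at a time gave 0 to 1 in HS against PF cows and 0 to 0 in PF against TN cows. The 1 was *UGT2B10* without HS replicate 1 (8 of all genes called) and *GSTT1* without HS replicate 3 (7 of all genes called). Leaving out mitochondrial genes lowered the total counts, and this scaling alone raises the CPM of the genes that remain. The summed level of all 4 families was higher in all 3 groups. UGT genes had 444, 694 and 495 CPM and SULT genes 1260.0, 1669 and 1753 CPM in TN, PF and HS cows. Some log2 fold changes reversed, and the cause was not tested. In HS against TN cows, *UGT2B10* was -0.60 with the replicate block and ranged from -1.86 to 1.01 with 1 cow left out, and *CYP3A24* from -0.022 (without HS replicate 3) to 1.59. In HS against PF cows, leaving out 1 cow gave -1.51 to 0.088 for *CYP3A24*, -0.98 to 0.45 for *GSTA5*, -0.72 to 0.64 for *GSTO1*, -0.48 to 0.32 for *SULT1B1*, -0.23 to 0.35 for *UGT2A1* and -0.0022 to 0.37 for *SULT1C4*. There *GSTA5* was 0.0026 with DESeq2 and 0.0064 without the filter, and *GSTO1* 0.0039 without the filter and 0.28 with the replicate block.

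The replicate numbers did not pair the cows: of 9 pairs with the same number, 3 had correlated deviations above 0.1 (range -0.218 to 0.241). With the replicate block, 0 members were called in each comparison, where 33, 6, 1 and 7 of all genes were. Of the members, 7, 3, 7 and 6 had an unadjusted p under 0.05. These counts follow the order HS against TN, HS against PF, PF against TN and the 3-group test. The share of all genes with such a p was not counted with the block. *GSTA5* rests on 6 to 89 counts per library.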
